A study of Sus scrofa with 12 samples.

Results

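Coronary artery tissue around zotarolimus-eluting stents (ZES) was compared with tissue around sirolimus-eluting stents (SES) by the RNA signal of every probe set on a pig microarray. The comparison took the 4 arrays labelled ZES and the 4 labelled SES by their stent label, which makes 8 of the 12 arrays of the series. The other 4 arrays, from bare metal stents (BMS) that carry no drug, served here to estimate the spread and as a reference range. All pigs were Yorkshire farm pigs, and all segments were taken 28 days after balloon angioplasty and implantation. Each side consisted of 2 pigs with 2 stented segments each, so 4 arrays of a side stand for 2 animals.

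SES 1 and SES 2 came from the left circumflex and the right coronary artery of one pig. SES 3 and SES 4 came from the right coronary and the left anterior descending artery of another. ZES 1 and ZES 2 were the right coronary and left anterior descending segments of one pig, and ZES 3 and ZES 4 the same vessels of another. BMS 1 and 2, and likewise BMS 3 and 4, were a right coronary and a left anterior descending segment of 1 pig each. No pig had both kinds of drug stent, so the stent and the animal cannot be told apart below the level of 2 pigs a side. The sources used here name no dose, coating or stent platform, so the drug cannot be told apart from the rest of the device.

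Sirolimus and zotarolimus are macrolides of one family. In zotarolimus a hydroxyl of the sirolimus molecule is replaced by a tetrazole, which makes it more lipophilic. Both bind the small protein FKBP12, the product of FKBP1A, and the complex blocks the kinase mTOR, which drives protein synthesis, cell growth and cell division. On a stent they are used to hold back the smooth muscle cells that grow into the lumen after the vessel wall is injured. In such tissue the contractile genes mark differentiated smooth muscle, while chemokines and interleukins mark the inflammatory cells and the activated wall. The pair compared here is the only pair of related drugs in the series, at 1 time point.

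All values are log2 signals, so a difference of 1 is a 2-fold change, and every difference is given as ZES minus SES. Markers of the vessel wall were present. ACTA2, the actin of smooth muscle, lay between 13.44 and 15.51 on all 8 arrays, and PECAM1, an adhesion protein of endothelium, between 9.09 and 10.75. Heart muscle genes were measured too. MYL2, the ventricular myosin light chain, ranged from 0.50 to 10.93 over the SES arrays and from 0.88 to 9.54 over the ZES arrays. The fat cell hormone ADIPOQ was above the background level of the array on 0 of 4 SES and 0 of 4 ZES arrays. FABP4, a fatty acid carrier of fat cells that endothelium and macrophages also make, was above background on all 8, at 11.05 to 12.45 with SES and 10.87 to 12.80 with ZES. These are bulk samples, so fewer cells of a type and less RNA per cell cannot be told apart.

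SES 4 stood apart from the other SES arrays before any test. The mean signal of 25 smooth muscle contractile genes was 10.04, 10.07 and 10.24 on SES 1 to 3 and 11.78 on SES 4. On ZES 1 to 4 it was 10.55, 12.33, 11.69 and 11.996, so ZES 1 was the low array of its side. SES 4 also had the highest mean of 17 heart muscle genes among the SES arrays, 8.51 against 5.53 to 6.03. Arrays of the same pig correlated at 0.788 to 0.906 over the probe sets tested. Arrays of the same stent from the other pig correlated at 0.803 to 0.898, a range that overlaps the former, and arrays of the other stent at 0.780 to 0.865.

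One array control moved with the stent. The GAPDH control, whose 3′ minus 5′ signal grows as RNA becomes shorter, was 2.71 ± 0.35 on the SES arrays and 3.66 ± 0.19 on the ZES arrays (SD, n = 4 each). Every ZES array was above every SES array (exact permutation test, two-sided, p = 0.0286, the smallest that 4 against 4 arrays allow, and 0.229 after Benjamini-Hochberg adjustment over 8 controls). That test shuffles segments. With the segments of each pig kept together there are 6 arrangements, and the exact two-sided p was 0.333, the smallest they allow. With this control as a covariate 0 probe sets passed the limma threshold and 1006 had an unadjusted p under 0.05. Its part in the results below was not tested beyond that fit. Background levels were close, with means of 4.72 on both sides.

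Of 16799 probe sets tested, 12 (0.0714%) had an adjusted p under 0.05 in limma, 5 higher and 7 lower with ZES. Among 5793 named genes the count was 7, made up of 3 higher with ZES (0.0518%) and 4 lower (0.0690%). RPUSD1, LOC100152327 and COASY were higher in ZES tissue. CXCL13, PLAC8, ARRDC4 and IDH1 were lower. In each of these 7 genes the 4 ZES arrays lay entirely to one side of the 4 SES arrays. Over all named genes every ZES array lay above every SES array in 3.44% and below in 3.23%. The 2 ZES pig means lay to one side of the 2 SES pig means, as they did in 41.2% of all probe sets tested. With the segments of each pig averaged first, RPUSD1, CXCL13 and ARRDC4 still passed (adjusted p = 0.0428, 0.0428 and 0.0471) and the other 4 did not (0.0748 to 0.132). That analysis called 4 probe sets, and one with no pig block called 6. The count rested on single arrays: it was 3 without SES 1, 2 without SES 2, 0 without SES 3, 158 without SES 4, 33 without ZES 1, 3 without ZES 2 and 2 without ZES 3. Without ZES 4 it was 14. Without SES 3 alone, 1189 probe sets had an unadjusted p under 0.05.

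**Figure D1:**
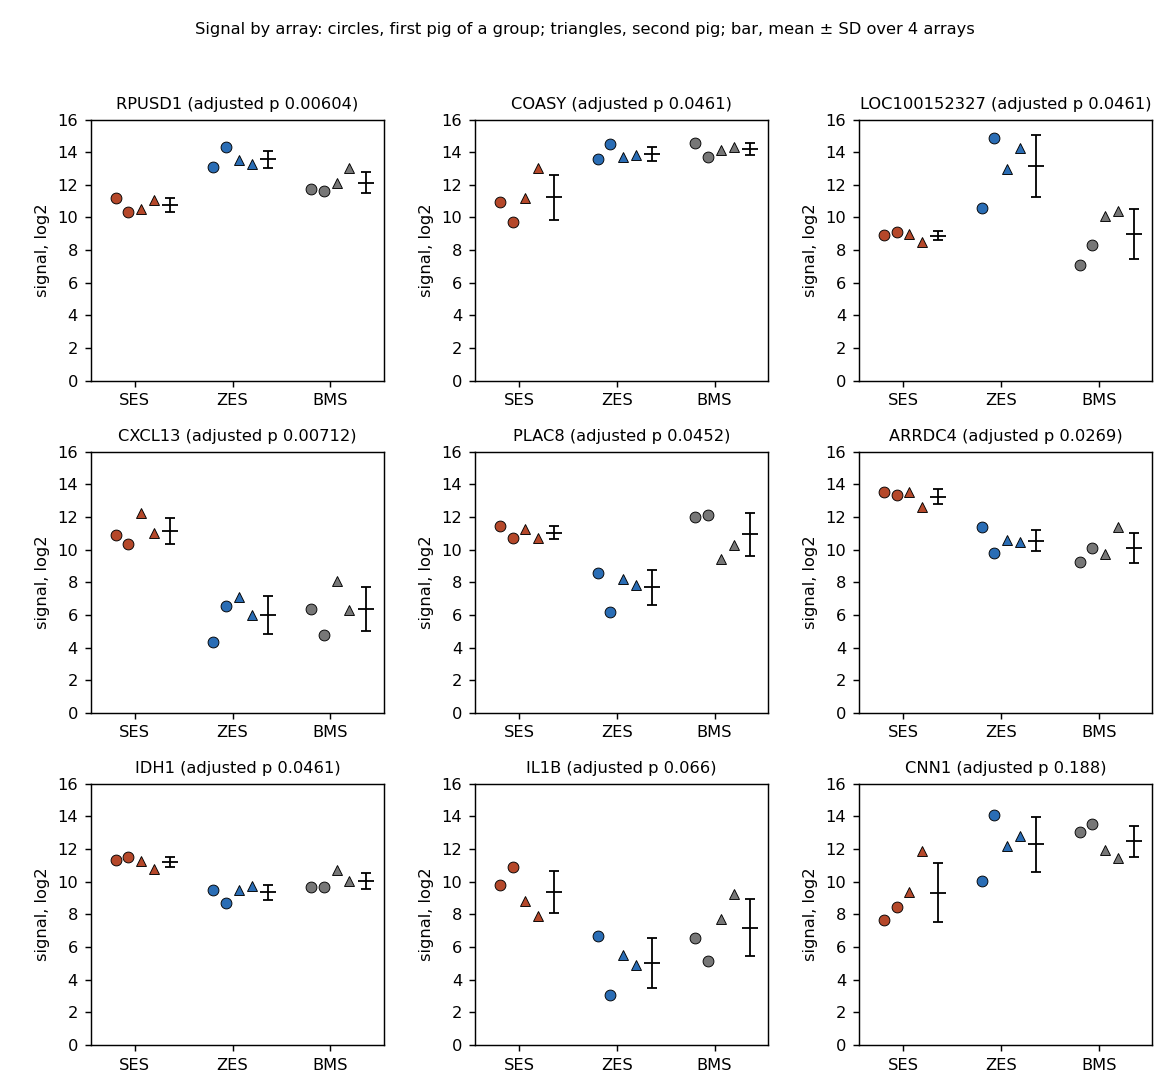
The log2 signal of the 7 genes past the threshold and of IL1B and CNN1 is plotted for each array, by stent type, with circles for the first pig of a group, triangles for the second, and a bar for the mean ± SD of 4 arrays. RPUSD1, COASY and LOC100152327 are higher on every ZES than on every SES array, CXCL13, PLAC8, ARRDC4, IDH1 and IL1B are lower, and for CNN1 the arrays overlap because SES 4 (11.86) is above ZES 1 (10.04).

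CXCL13, a chemokine that draws B cells into lymphoid follicles, showed the widest gap of the 7 genes. It read 10.88, 10.34, 12.26 and 11.01 on SES 1 to 4, and 4.36, 6.57, 7.07 and 5.98 on ZES 1 to 4. All 4 SES values were high and all 4 ZES values were near the bare metal range of 4.77 to 8.07. The difference was −5.13 ± 0.68 (SE, adjusted p = 0.00712), a 35.0-fold lower signal with ZES. A second, dimmer CXCL13 probe set had −2.62 ± 0.85 (adjusted p = 0.270). CXCL13 passed in 23 of 29 alternative analyses and kept its sign in all 29, a sign that leaving arrays out could not turn. It missed the threshold without SES 3 (−4.75, adjusted p = 0.0980) and without the pig of SES 1 and 2 (−5.64, adjusted p = 0.0655).

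RPUSD1, a member of the pseudouridine synthase family of RNA-modifying enzymes, had the smallest p. Its SES values were 11.21, 10.32, 10.51 and 11.07, and its ZES values 13.10, 14.31, 13.54 and 13.27. Both pigs of each side agreed closely, with pig means of 10.76 and 10.79 against 13.70 and 13.41. The bare metal arrays lay between, at 11.63 to 13.03. The difference was 2.78 ± 0.35 (adjusted p = 0.00604), or 6.87-fold. The other RPUSD1 probe set, with a lower signal, had 0.96 ± 0.91 (adjusted p = 0.792), and the mean of both gave 1.87 (adjusted p = 0.128). Without SES 3 the adjusted p was 0.0706, and without the pig of SES 1 and 2 it was 0.0655.

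ARRDC4 encodes an arrestin-like protein that, with its relative TXNIP, restrains glucose uptake. Signals were 13.54, 13.34, 13.54 and 12.58 with SES, and 11.39, 9.79, 10.56 and 10.45 with ZES. SES 4 was the lowest of its side and ZES 1 the highest of the other, with a gap between them. The difference was −2.70 ± 0.42 (adjusted p = 0.0269), or 6.50-fold, and the bare metal arrays (9.22 to 11.38) overlapped the ZES range, with ZES 1 at their upper end. TXNIP did not share the gap: its difference was −0.11, with a 95% interval from −0.76 to 0.55. The ARRDC4 call was lost without any one of SES 1, SES 2, SES 3, ZES 2 or ZES 3 (adjusted p from 0.0790 to 0.173).

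PLAC8, a small cysteine-rich protein found in white blood cells and placenta, read 11.45, 10.68, 11.27 and 10.74 with SES and 8.59, 6.18, 8.20 and 7.81 with ZES. Here the bare metal arrays, at 9.45 to 12.10, overlapped the SES range and not the ZES range. The difference was −3.34 ± 0.57 (adjusted p = 0.0452). IDH1, the cytosolic isocitrate dehydrogenase that makes NADPH, read 11.33, 11.52, 11.26 and 10.80 with SES and 9.49, 8.68, 9.48 and 9.74 with ZES. Its difference was −1.88 ± 0.34 (adjusted p = 0.0461), the smallest of the 7 genes. Both genes passed in 10 of 29 alternative analyses. Either call was lost without SES 1, SES 2, SES 3, ZES 2 or ZES 3, with adjusted p from 0.0790 to 0.231 for PLAC8 and from 0.0815 to 0.231 for IDH1, and that of PLAC8 without ZES 4 (0.0507).

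COASY, the enzyme of the last steps of coenzyme A synthesis, had SES signals of 10.93, 9.73, 11.21 and 13.04. The ZES signals were 13.57, 14.50, 13.70 and 13.82, inside or near the bare metal range of 13.71 to 14.57. Thus SES 1 to 3 were low and SES 4 lay close to the other stents. The difference was 2.67 ± 0.48 (adjusted p = 0.0461), and a dimmer COASY probe set had 1.80 ± 0.53 (adjusted p = 0.217). Without SES 4 the COASY difference was 3.29 (adjusted p = 0.00121), and without the pig of SES 1 and 2 it was 1.77 (adjusted p = 0.470). The COASY call was lost without any other single array but ZES 1, with adjusted p from 0.0651 to 0.231.

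LOC100152327 had the largest difference in the ZES direction among the 7 genes, 4.29 ± 0.76 (adjusted p = 0.0461). It read 8.91, 9.13, 8.97 and 8.49 on the SES arrays and 10.55, 14.88, 12.96 and 14.26 on the ZES arrays. The SES arrays were within 1 log2 unit of each other while the ZES arrays spread widely, with ZES 1 low. In the RefSeq annotation its span overlaps 6 protein-coding genes, 1 pseudogene, 1 C region and 4 V segments, the last 2 kinds being the building pieces of antigen-receptor genes. Of 25 B and plasma cell genes listed, 6 were measured, with a median difference of 0.50 and list means of 8.33 to 9.38 with SES and 8.81 to 9.31 with ZES. That median was −0.05 in right coronary segments alone. By unadjusted p under 0.05, 0 were higher and 1 was lower, CD79B with −2.52 (6.42% and 4.95% of all genes). None of the 6 passed, and their part in the LOC100152327 signal was not tested. The LOC100152327 call was kept without SES 4 or ZES 1 and lost without any one of the other 6 arrays (adjusted p from 0.0815 to 0.231). The difference was 2.70 in the right coronary segments and 5.87 in the left branches (stent by artery interaction in limma, unadjusted p = 0.0219, adjusted p = 0.9998 over all probe sets tested).

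The remaining 5 called probe sets were 1 of SRSF11 and 4 with no gene name. SRSF11 encodes a splicing factor. The called probe set read 10.09 to 10.89 with SES and 12.31 to 14.26 with ZES, a difference of 2.50 ± 0.40 (adjusted p = 0.0269). Its 3 other tested probe sets had 0.29, 0.66 and 1.31 and none passed, so the gene as a whole was not called. Of the unnamed probe sets 3 were lower with ZES, with differences of −3.22, −2.40 and −2.70, and 1 was higher with 2.15.

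**Figure D2:**
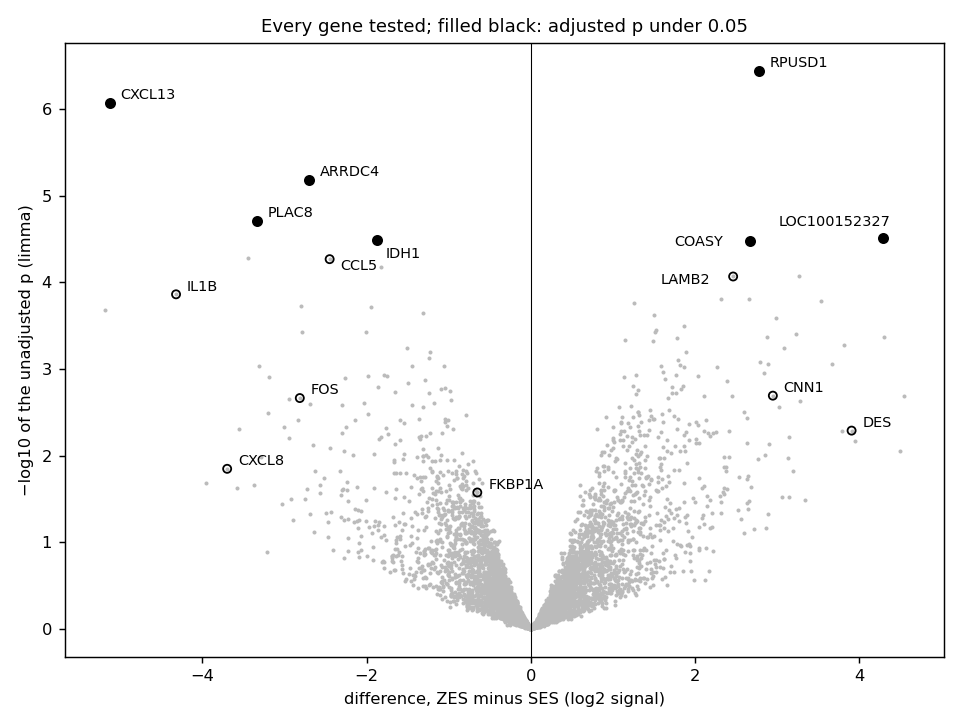
Each point is 1 of the 5793 genes tested, with its difference between ZES and SES in log2 signal on the horizontal axis and the −log10 of its unadjusted limma p on the vertical axis. The 7 genes with an adjusted p under 0.05 are filled in black, and labelled open points are genes named in the text that did not pass, among them IL1B (−4.32), CNN1 (2.95) and FKBP1A (−0.65).

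Just outside the threshold were NRN1, CCL5, MT-2B, ELMO3, LAMB2 and DPCD, all with an adjusted p of 0.0544. CCL5, a chemokine that attracts T cells, read 11.47, 12.77, 12.38 and 11.19 with SES and 10.51, 9.10, 9.70 and 8.71 with ZES (difference −2.45 ± 0.46). LAMB2, the beta-2 chain of basement membrane laminin, read 7.36, 7.56, 7.15 and 9.54 with SES and 9.78, 11.32, 10.09 and 10.27 with ZES (2.46 ± 0.48). In both genes SES 4 was the SES array closest to the ZES arrays. The metallothionein MT-2B had −1.83 ± 0.35, and NRN1, a membrane-anchored protein first known from neurons, −3.44 ± 0.64. NRN1 was above background on 2 of 4 ZES arrays, which limits the precision of its difference. ELMO3, of a family that steers cell movement and engulfment, had 3.27 ± 0.64. Without SES 4 all 6 passed, with adjusted p from 0.00260 in LAMB2 and ELMO3 to 0.0299 in MT-2B, and without ZES 1 CCL5 and NRN1 passed as well (0.0227 each). Of 12 omissions of an array or pig, MT-2B passed in 1 and each of the others in 2.

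IL1B, the inflammatory cytokine interleukin-1 beta, did not pass over all probe sets (adjusted p = 0.0660). It read 9.77, 10.88, 8.83 and 7.89 on SES 1 to 4 and 6.66, 3.03, 5.52 and 4.87 on ZES 1 to 4. Every ZES value lay below every SES value, and 2 of 4 ZES arrays were above background. The difference was −4.32 ± 0.88 with a 95% interval from −6.18 to −2.46, and a second IL1B probe set had −4.45 ± 1.40. Without SES 4 the difference was −4.83 (adjusted p = 0.0193), and without ZES 1 −4.88 (adjusted p = 0.0467). These were the only 2 of 12 omissions of an array or pig in which IL1B passed. Over the 12 its difference ran from −5.30 to −3.34.

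Across 30 measured cytokines and chemokines, of 57 listed, 25 had a negative difference and 5 a positive one. CXCL13 alone passed. By unadjusted p under 0.05 the counts were 11 lower and 1 higher, against 4.95% of all genes lower and 6.42% higher. The median difference was −0.80, against 0.01 over all genes tested. For 5 of the 30 every ZES array lay below every SES array (3.23% of all genes) and for none above (3.44%). The list means were 9.44, 9.68, 9.52 and 9.02 with SES and 8.69, 7.90, 8.56 and 8.17 with ZES, which do not overlap. The median stayed between −1.01 and −0.58 over all alternative analyses.

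The ligands of this list differed in size and spread. CCL24, which attracts eosinophils, read 13.18, 14.21, 13.79 and 12.73 with SES and 12.80, 9.52, 10.17 and 10.23 with ZES, so ZES 1 overlapped the SES range (difference −2.80 ± 0.59, adjusted p = 0.0735). CCL2, the main monocyte attractant, read 13.80, 14.02, 13.88 and 13.20 with SES and 12.82, 12.25, 12.83 and 12.07 with ZES (−1.23 ± 0.30, adjusted p = 0.122). CXCL8, which recruits neutrophils, had −3.70 ± 1.35 (adjusted p = 0.349), with ZES 2 listed at 0 and ZES 1 at 8.11. IL1A had −1.79 ± 0.91 (adjusted p = 0.531) and LTB, which shapes lymphoid tissue, −1.11 ± 0.58 (adjusted p = 0.543). CCL21, a chemokine of lymphoid vessels, had −0.02 with an interval from −1.33 to 1.30. Without SES 4 CCL24 (−3.05, adjusted p = 0.0296) and CCL2 (−1.41, adjusted p = 0.0344) passed, and CCL24 also without ZES 1 (−3.51, adjusted p = 0.00746). Of 12 omissions of an array or pig, CCL24 passed in 3 and CCL2 in 1. On the positive side the largest difference of the list was 1.34, in CXCL9, which interferon induces.

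The 12 measured chemokine and interleukin receptors had a median of −0.32 (−0.20 without SES 3, −0.12 without ZES 2, −0.08 without ZES 4), with none past the threshold. CXCR4 had −0.94 (95% interval −2.32 to 0.44) and CCR1 −0.86 (−1.84 to 0.12). The 10 measured leukocyte adhesion genes had a median of −0.23, and ICAM1, the endothelial ligand of leukocyte integrins, −1.09 (−2.25 to 0.06). VCAM1, another such ligand, had −0.19 ± 0.39.

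Immediate early and stress genes, which cells switch on within minutes of a stimulus, gave the lowest median of any list, −0.93. Of 30 measured members 25 were negative and 5 positive, and by unadjusted p 13 were lower and 1 higher, against 4.95% and 6.42% of all genes. None passed the adjusted threshold. FOS, a subunit of the AP-1 transcription factor, read 11.15, 12.36, 10.71 and 9.49 with SES and 9.45, 6.35, 9.22 and 7.44 with ZES. The lowest SES value and the highest ZES value of FOS nearly met (difference −2.81 ± 0.78, adjusted p = 0.193). KLF4, a transcription factor that represses contractile genes in smooth muscle, read 10.63, 10.78, 10.85 and 9.26 with SES and 8.97, 8.21, 8.80 and 7.49 with ZES (−2.01 ± 0.45, adjusted p = 0.0953). EGR1 had −1.45 ± 0.41 (adjusted p = 0.202; other probe sets −1.08 and 0.26) and IER3 −1.99 ± 0.58 (adjusted p = 0.217). The list mean was lowest on SES 4 among the SES arrays (8.99, against 9.69 to 10.25), and ZES 1 to 4 had 9.15, 8.28, 9.07 and 8.76. Without SES 4 the list median was −1.23, and KLF4 passed (−2.38, adjusted p = 0.0163) while FOS (−3.31, adjusted p = 0.0671) and EGR1 (−1.70, adjusted p = 0.0736) did not. KLF4 passed in 1 of 12 omissions of an array or pig.

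**Figure D3:**
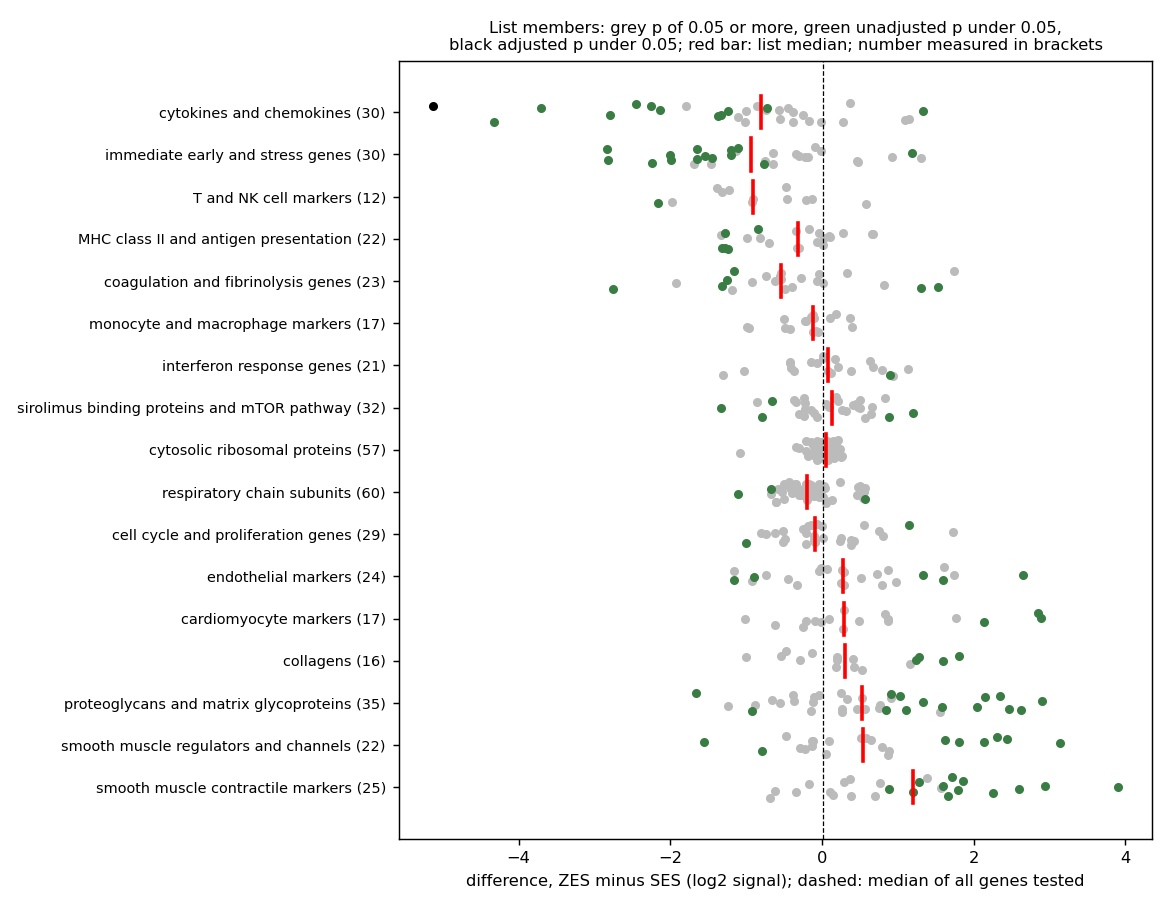
Each point is 1 measured gene of a list, placed by its difference between ZES and SES in log2 signal, with green points for an unadjusted p under 0.05, black for an adjusted p under 0.05, and a red bar at the list median. Cytokines (median −0.80) and immediate early genes (−0.93) lie left of the median of all genes (0.01, dashed), smooth muscle contractile genes (1.21) lie right of it, and ribosomal proteins (0.05) cluster around it.

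Immune cell lists had medians on both sides of 0. Among 12 measured T and NK cell genes, of 36 listed, 11 were negative, the median was −0.91, and none passed. SH2D1A, an adaptor of T cell signalling, read 9.76, 8.07, 8.76 and 7.82 with SES and 7.51, 5.63, 7.94 and 4.69 with ZES (−2.16 ± 0.75, adjusted p = 0.307). CD3E, part of the T cell receptor complex, had −0.92 (−2.67 to 0.83), and CD8A −1.98 (−4.10 to 0.15). The T cell list means were 6.28 to 7.43 with SES and 5.35 to 6.44 with ZES, with SES 4 lowest of its side.

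Macrophage genes gave a median of −0.12 over 17 members, and 0 of them had an unadjusted p under 0.05 (6.42% of all genes higher and 4.95% lower). CD163 had −0.22 (−1.18 to 0.74) and CD14, the co-receptor for bacterial lipopolysaccharide, 0.11 (−0.73 to 0.95). The list means were 9.79 to 10.54 with SES and 9.78 to 10.03 with ZES. A list of antigen presentation genes, which holds class II and class I genes and co-stimulators such as CD80, was negative in 15 of 22 measured, with a median of −0.31 (−0.14 without ZES 2, −0.47 without ZES 1) and none past the threshold. By unadjusted p under 0.05, the list had 5 lower and 0 higher (4.95% and 6.42% of all genes). Among its class II genes SLA-DQA1 had −1.23 ± 0.39, SLA-DRB1 −1.28 ± 0.41, SLA-DRA −1.27 ± 0.44 and SLA-DQB1 −1.32 ± 0.50 (adjusted p = 0.253, 0.259, 0.305 and 0.372). The SLA genes are the pig's major histocompatibility genes, and probe sets of one family can share transcripts. CD79B, a part of the B cell receptor, had −2.52 ± 0.96 (adjusted p = 0.375) and was high on SES 3 and SES 4 (8.97 and 8.03) and lower on SES 1 and SES 2 (5.82 and 5.26), the other SES pig. CFP, the complement activator properdin, read 10.03, 10.00, 10.02 and 9.50 with SES and 7.94, 8.43, 8.32 and 7.05 with ZES (−1.95 ± 0.41, adjusted p = 0.0735; without SES 4, 0.0351). It passed in 1 of 12 omissions of an array or pig. Interferon response genes had a median of 0.08 over 21 members, and none passed.

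Genes of the smooth muscle contractile list had mostly positive differences, and none passed the threshold. Of 25 measured members, of 33 listed, 21 were positive and 4 negative, 12 were higher by unadjusted p and 0 lower (6.42% and 4.95% of all genes), and the median was 1.21. CNN1, calponin of the contractile filament, read 7.68, 8.42, 9.37 and 11.86 on SES 1 to 4 and 10.04, 14.08, 12.19 and 12.81 on ZES 1 to 4. SES 4 lay inside the ZES range and ZES 1 was the lowest of its side (difference 2.95 ± 0.81, adjusted p = 0.188). The bare metal arrays, at 11.45 to 13.51, lay within the ZES range. In 1 of the 25 members, ITGA5, every ZES array lay above every SES array (3.44% of all genes), and in 0 below (3.23%). ITGA5, the fibronectin receptor subunit, read 7.84, 8.72, 8.29 and 8.37 with SES and 10.18, 10.41, 9.96 and 9.53 with ZES (1.72 ± 0.46, adjusted p = 0.172). Its bare metal arrays, at 7.24 to 9.65, overlapped both ranges.

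SES 4 and ZES 1 held the same places in other contractile genes. CALD1, the actin-binding protein caldesmon, read 12.53, 12.48, 13.08 and 14.67 with SES and 13.46, 15.55, 15.21 and 15.22 with ZES (1.67 ± 0.46, adjusted p = 0.192). A second CALD1 probe set had −0.12, and the mean of both gave 0.77 (adjusted p = 0.487). MYL9, the regulatory myosin light chain, had 2.597 ± 0.76 (adjusted p = 0.217) and TAGLN, which bundles actin, 1.86 ± 0.62 (adjusted p = 0.282). ACTA2 had 0.70, with an interval from −0.22 to 1.62. The list ended at DES, the intermediate filament desmin, with 3.91 ± 1.22 (adjusted p = 0.2499), while a dimmer DES probe set had −0.36 ± 1.17. Without SES 4 the median of the contractile list was 1.74, and CNN1 (3.81, adjusted p = 0.0167), MYL9 (3.40, adjusted p = 0.0193), TAGLN (2.52, adjusted p = 0.0322) and CALD1 (2.17, adjusted p = 0.0151) passed, CALD1 also without ZES 1 (2.13, adjusted p = 0.0467). ACTA2 did not (1.13, adjusted p = 0.246). Without the pig of SES 1 and 2 the median was 0.62, CNN1 had 1.67 (adjusted p = 0.975), MYL9 1.55 (0.986), TAGLN 0.97 (0.986) and CALD1 0.98 (0.981). With all arrays in the fit, 4 of these 5 genes had overlapping SES and ZES arrays because of SES 4, and in ACTA2 the pig means overlapped too.

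Smooth muscle regulators and channels gave a median of 0.55 over 22 genes. It ranged widely as arrays were left out, at 0.28 without SES 2, 0.87 without SES 4, 0.98 without ZES 1, 0.16 without ZES 2, 0.30 without ZES 4 and 0.15 without the pig of SES 1 and 2. KCNMB1, the channel subunit that couples calcium to relaxation, read 8.56, 8.69, 10.46 and 12.14 with SES and 10.81, 13.24, 12.97 and 12.61 with ZES (2.45 ± 0.67, adjusted p = 0.189). PPP1R14A, an inhibitor of myosin phosphatase, had 2.14 ± 0.64 (adjusted p = 0.224). RGS4, a brake on G protein signalling, had −1.55 ± 0.47 (adjusted p = 0.230). Without SES 4 KCNMB1 (3.20, adjusted p = 0.0142) and PPP1R14A (2.75, adjusted p = 0.0344) passed, while without the pig of SES 1 and 2 they had 1.11 (0.986) and 1.20 (0.983).

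Heart muscle genes were on the same arrays. Of 17 measured members, of 31 listed, 11 were positive, 3 higher by unadjusted p (6.42% of all genes), none passed, and the median was 0.29, which turned to −0.39 with the GAPDH control as a covariate and to −0.07 without ZES 4, and was 1.13 without SES 4, 0.15 without SES 3, 0.49 without ZES 1 and 0.55 without ZES 3. Their list means were 5.80, 5.53, 6.03 and 8.51 with SES and 6.29, 7.03, 6.88 and 8.30 with ZES. TNNC1, a troponin shared with slow skeletal muscle, read 7.11, 8.32, 10.07 and 12.49 with SES and 9.73, 13.82, 12.70 and 13.12 with ZES, an order close to that of CNN1 (2.85 ± 0.98, adjusted p = 0.305; without SES 4, 3.88 and 0.0416). TNNC1 passed in 2 of 12 omissions of an array or pig. TNNI3, the cardiac troponin inhibitor subunit, was listed at 0 on SES 2 and read 4.80, 4.89 and 8.28 on the other SES arrays, against 6.37 to 9.13 with ZES. MYH7, the slow cardiac myosin, was above background on 3 of 4 arrays of each side, and its difference was 0.09. The part of heart muscle in the smooth muscle values was not tested.

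**Figure D4:**
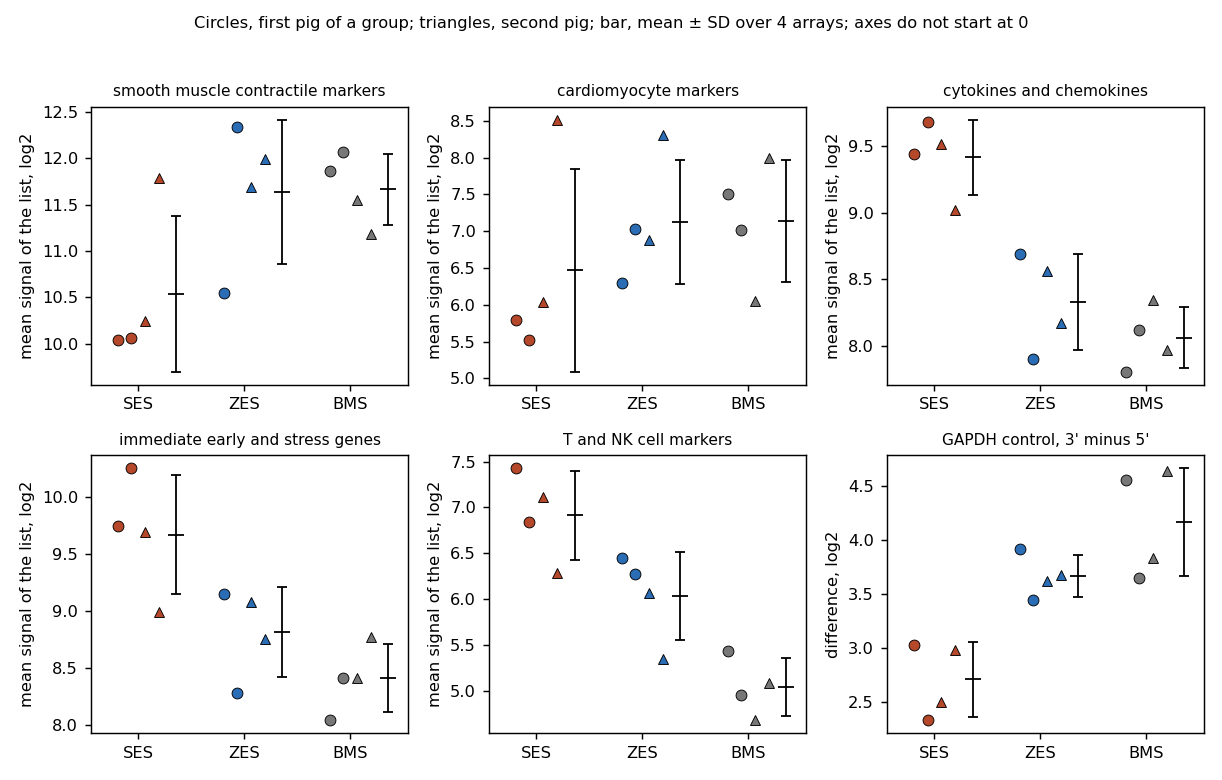
Each panel shows, for every array, the mean log2 signal of the measured genes of a list, and in the last panel the 3′ minus 5′ difference of the GAPDH control, with circles for the first pig, triangles for the second and bars for the mean ± SD of 4 arrays. SES 4 has the highest smooth muscle (11.78) and heart muscle (8.51) means of the SES arrays, cytokine means are 9.02 to 9.68 with SES and 7.90 to 8.69 with ZES, and the GAPDH difference is higher on every ZES than on every SES array.

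Of 35 measured proteoglycans and matrix glycoproteins, 23 were positive and 12 negative, with 12 higher and 2 lower by unadjusted p (6.42% and 4.95% of all genes) and a median of 0.53, which was 0.35 without SES 3. Beside LAMB2, COL4A2, a chain of the basement membrane collagen, read 8.998, 8.93, 9.22 and 11.48 with SES and 11.14, 12.18, 11.16 and 11.41 with ZES (1.81 ± 0.45, adjusted p = 0.139). COL15A1, a collagen next to basement membranes, had 1.28 ± 0.35 (adjusted p = 0.186). SES 4 was inside the ZES range for both collagens, and without it COL4A2 had 2.42 (adjusted p = 0.00260), COL15A1 1.69 (adjusted p = 0.00962) and LAMB2 3.00 (adjusted p = 0.00260). Without the pig of SES 1 and 2 they had 1.12 (0.919), 0.90 (0.956) and 2.02 (0.625). HAPLN1, which links hyaluronan to proteoglycans, read 5.49, 5.24, 5.27 and 6.10 with SES and 6.86, 7.16, 9.32 and 7.36 with ZES (2.15 ± 0.68, adjusted p = 0.253).

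POSTN, periostin, a matrix protein made in wounds, had −1.66 ± 0.54 (adjusted p = 0.277), with ZES 1 (14.67) inside the SES range of 14.02 to 14.78 and ZES 2 at 10.67. A dimmer POSTN probe set had 2.15, and the mean of both gave 0.24 (adjusted p = 0.936), so the direction turned. FN1, fibronectin, had −0.92 ± 0.40 (adjusted p = 0.449), and a dimmer FN1 probe set had 0.90 ± 0.66. The 16 measured collagen genes and their modifying enzymes had a median of 0.31, with 4 higher and 0 lower by unadjusted p (6.42% and 4.95% of all genes). The median was 0.08 without SES 3, 0.56 without SES 4 and 0.48 without ZES 1. COL3A1, the fibrillar collagen of vessel walls, had −0.47 (−1.70 to 0.76), and COL1A2 1.60 ± 0.64 (adjusted p = 0.402). With the GAPDH control as a covariate the proteoglycan median was −0.04, so its direction turned, while the contractile median was 1.496 and the cytokine median −0.70.

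Proteases and their inhibitors had a median of 0.25 over 24 genes, with 4 higher and 3 lower by unadjusted p (6.42% and 4.95% of all genes). The median turned to −0.24 with the GAPDH control as a covariate, to −0.24 in left branches alone and to −0.09 without the pig of SES 3 and 4. CTSD, a lysosomal cathepsin, had 1.89 ± 0.45 (adjusted p = 0.122) and CTSC, the cathepsin that activates serine proteases of white blood cells, −1.79 ± 0.46 (adjusted p = 0.152). CTSK, the collagen-cutting cathepsin of osteoclasts, had 0.92 ± 0.27 (adjusted p = 0.224), and ACP5, the acid phosphatase of the same cells, read 2.97, 5.42, 6.63 and 7.01 with SES and 8.26, 7.84, 8.71 and 8.38 with ZES (2.79 ± 0.69, adjusted p = 0.135). Without SES 4 CTSD (2.39, adjusted p = 0.00733) and ACP5 (3.33, adjusted p = 0.0276) passed, and without ZES 1 CTSC did (−2.33, adjusted p = 0.0227). Of 12 omissions of an array or pig, CTSD and ACP5 passed in 2 each and CTSC in 1. MMP9 read 14.42 and 8.89 on the arrays of one ZES pig and 12.74 and 12.25 on those of the other (difference 0.68, interval −1.16 to 2.52).

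Endothelial cells regrow over a stent as the vessel heals. Over 24 measured members the median was 0.28 (0.15 without SES 2 or without SES 3), 3 were higher and 2 lower by unadjusted p (6.42% and 4.95% of all genes), and none passed. PECAM1 had 0.29 (−0.49 to 1.08; a second probe set 1.14), CDH5, the cadherin of endothelial junctions, −0.02 (−1.48 to 1.45), and NOS3, which makes nitric oxide, 0.87 (−0.49 to 2.23). VWF, the adhesive protein for platelets, had 1.73 (−0.14 to 3.61) and was low on SES 4 (3.72, against 7.19 to 8.005 on the other SES arrays). AQP1, a water channel of endothelium and red cells, read 9.86, 10.80, 9.39 and 11.93 with SES and 12.35, 13.30, 13.43 and 13.50 with ZES (2.65 ± 0.55, adjusted p = 0.0685; without SES 4, 3.11 and 0.0101). A second AQP1 probe set had 0.43, and the mean of both gave 1.54 (adjusted p = 0.306). AQP1 passed in 1 of 12 omissions of an array or pig. HBB, beta globin, had −0.25 (−1.22 to 0.73).

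Coagulation genes gave a median of −0.54 over 23 members, with 4 lower and 2 higher by unadjusted p (4.95% and 6.42% of all genes). TFPI2, an inhibitor of plasmin and tissue factor, had −1.32 ± 0.46 (adjusted p = 0.318), and ZES 1 (12.68) lay in the SES range of 12.43 to 12.70. THBD, thrombomodulin, had −1.16 ± 0.45 (adjusted p = 0.385), and F3, tissue factor, −1.93 (−4.69 to 0.83). P2RY12, the ADP receptor that antiplatelet drugs block, read 10.37, 10.36, 10.54 and 10.74 with SES and 11.84, 11.41, 12.29 and 11.70 with ZES (1.31 ± 0.48, adjusted p = 0.352).

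The drug target pathway itself showed no called gene. Of 55 sirolimus binding proteins and mTOR pathway genes listed, 32 were measured, 18 positive and 14 negative, with 2 higher and 3 lower by unadjusted p and a median of 0.13. Among all genes 6.42% were higher and 4.95% lower, so the higher count was close to that share and the lower count somewhat above it. FKBP1A, the receptor of both drugs, read 13.27, 13.04, 13.12 and 12.44 with SES and 11.97, 12.09, 12.61 and 12.57 with ZES. SES 4 lay among the ZES values, and the difference was −0.65 (−1.22 to −0.09, adjusted p = 0.416). FKBP5, a co-chaperone of steroid receptors that also binds these drugs, had 0.21 (−0.38 to 0.80). A dim FKBP5 probe set had 2.37 ± 1.23.

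**Figure D5:**
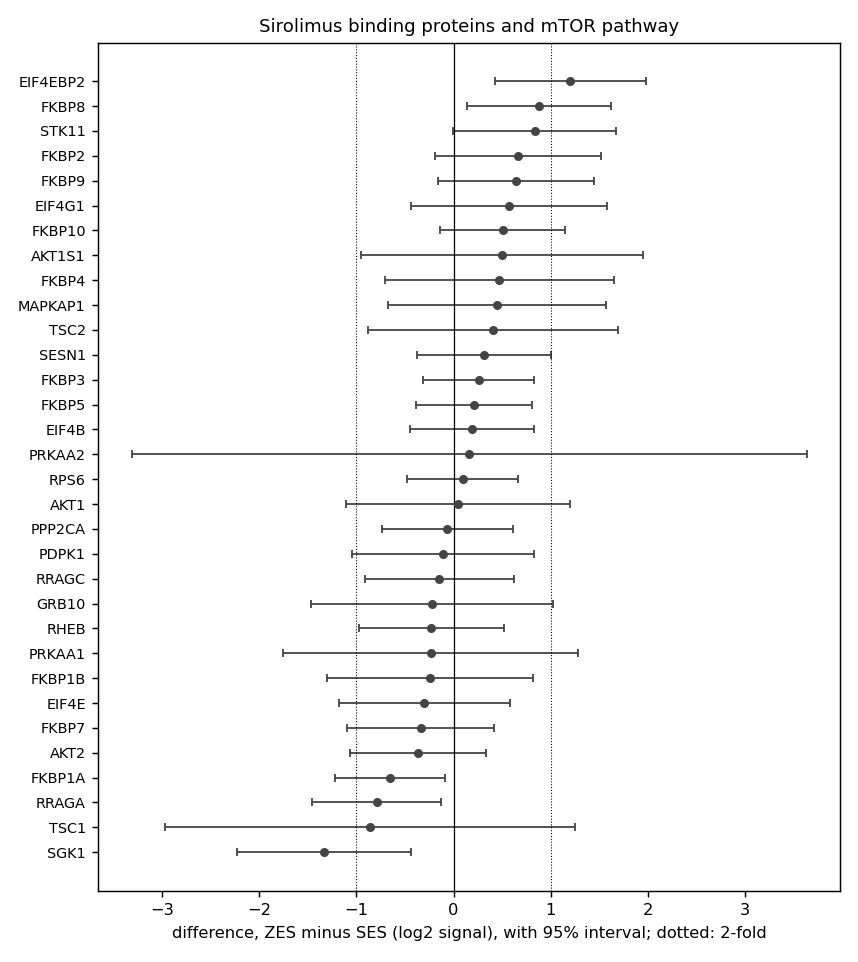
The difference between ZES and SES in log2 signal is drawn for each of the 32 measured genes of the sirolimus binding and mTOR pathway list, with its 95% interval and dotted lines at a 2-fold change. The values run from −1.34 in SGK1 to 1.20 in EIF4EBP2, 7 of 32 intervals lie wholly between the dotted lines, and no gene passed the adjusted threshold.

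EIF4EBP2, a repressor of cap-dependent translation that mTOR inactivates, read 9.95, 9.49, 10.07 and 10.44 with SES and 10.71, 11.70, 10.55 and 11.79 with ZES, with no overlap (1.20 ± 0.37, adjusted p = 0.240). Its 4 other probe sets had −0.47 to 0.14, and the mean of all gave 0.12 (adjusted p = 0.934). SGK1, a kinase downstream of mTOR, had −1.34 ± 0.42 (adjusted p = 0.258). RRAGA, a GTPase that brings mTOR to the lysosome, had −0.79 ± 0.31 (adjusted p = 0.397), and FKBP8, a relative of FKBP1A on mitochondria, 0.88 ± 0.35 (adjusted p = 0.399). For 7 of the 32 genes the 95% interval lay within a 2-fold change, as it did for 20.1% of all genes.

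Ribosomal protein genes are the best known targets of mTOR in translation. Of 57 measured cytosolic ribosomal protein genes none passed, the median was 0.05, and the interval lay within a 2-fold change for 55 (20.1% of all genes). Their signals were high, with list means of 14.91 to 15.45 with SES and 14.39 to 15.68 with ZES. Among 34 genes of ribosome assembly and RNA modification the median was −0.20 and RPUSD1 alone passed. MRTO4, a ribosome assembly factor, had 1.17 ± 0.37 (adjusted p = 0.259). Over 60 respiratory chain subunits the median was −0.20, and 38 intervals lay within a 2-fold change (20.1% of all genes). CYCS, cytochrome c, had −1.10 ± 0.41 (adjusted p = 0.359). Cell cycle genes gave a median of −0.09 over 29 members, with 1 higher and 1 lower by unadjusted p (6.42% and 4.95% of all genes). PCNA, the replication clamp, had −0.62 (−1.36 to 0.12), and CCNB1, a mitotic cyclin, −0.11 (−1.48 to 1.26). RRM1, the large subunit of ribonucleotide reductase, had 1.15 ± 0.42 (adjusted p = 0.357).

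In glucose metabolism 22 of 32 measured genes were negative, with a median of −0.27 (−0.12 without ZES 4), and ARRDC4 alone passed. By unadjusted p under 0.05, 4 were lower and 2 higher (4.95% and 6.42% of all genes). Every ZES array lay below every SES array in 3 and above in 2 (3.23% and 3.44% of all genes). The highest difference was that of PGAM2, 2.14 ± 0.90 (adjusted p = 0.430), with no overlap of the arrays. SLC2A3, a high-affinity glucose transporter, read 12.58, 12.94, 12.45 and 11.96 with SES and 12.56, 7.501, 10.95 and 9.73 with ZES, so that ZES 1 was as high as the SES arrays (−2.30 ± 0.72, adjusted p = 0.253). LDHA, which makes lactate, had −1.20 ± 0.48 (adjusted p = 0.401), and HIF1A, the oxygen-sensing transcription factor, −0.70 ± 0.29 (adjusted p = 0.425; other probe sets −1.04 to 1.40). Genes of sterol and fatty acid synthesis had a median of 0.41 over 19 members (0.25 without SES 4, 0.21 without ZES 1), none past the threshold. FDFT1, the first enzyme committed to sterols, had 0.83 ± 0.32 (adjusted p = 0.394). PNPLA2, the lipase that starts fat breakdown, read 10.82 to 11.18 with SES and 11.70 to 13.27 with ZES (1.31 ± 0.35, adjusted p = 0.176; a second probe set 0.56). Autophagy and lysosome genes, which mTOR holds down, had a median of 0.03 over 31 members.

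Likeness to the pattern of 5 genes was measured over the 8 arrays. Pearson correlations with 8 points from 4 pigs are a description here, since the points share animals and the stent gap itself. The patterns closest to CXCL13 were those of RAC2 (r = 0.973), QKI (0.964) and MIEN1 (0.954). For IL1B they were FOS (0.972), STARD7 (0.9703) and CXCL16 (0.968), and for RPUSD1 they were PRAF2 (0.973), CDK5RAP3 (0.962) and ERI3 (0.959). For ARRDC4 they were C17H8orf4 (0.983), PLAC8 (0.978) and ATP5A1 (0.973). CNN1 went with TAGLN (0.992), EEF1D (0.990) and MYL9 (0.989). Of these 15 genes PLAC8 alone passed the threshold in its own right.

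Vessel was matched in part between the sides. In the right coronary segments alone, 2 a side from different pigs, RPUSD1 had 2.91, CXCL13 −5.59, ARRDC4 −2.46, IL1B −3.76 and CNN1 2.22. In the left branches, 2 a side, they had 2.65, −4.67, −2.94, −4.88 and 3.67. The directions were the same in both vessels for all 5 genes. For RPUSD1, CXCL13, ARRDC4 and IL1B this was fixed beforehand, since their ZES and SES arrays did not overlap. A test of the stent difference between vessels found 0 of 16799 probe sets past the threshold in limma, with 490 at an unadjusted p under 0.05.

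The width of the intervals bounds what 8 arrays of 4 pigs could show. The median 95% interval of a gene reached 1.001 log2 units to each side of its estimate, about a 2-fold change, and many genes had wider intervals. Over all 5793 genes 2925 differences were positive and 2868 negative.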

How the data were processed

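Each array has 1 deposited log2 signal per probe set. The submitters' processing notes name Affymetrix Expression Console 5.0 and the MAS5 algorithm as what the authors used. The log base and scale were read from the values, whose antilog has a trimmed mean of 500.15 to 500.17 on all 12 arrays, with 0 as a floor. Total RNA came from tissue dissected off each stent, per the labels' protocols.

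Of 24123 probe sets, 124 controls and the 30% with the lowest mean were left out, leaving 16799. Gene names came from GEO's platform annotation: 10069 probe sets had 1 symbol, 198 had several and 13732 had none. The probe set with the highest mean stood for a gene. The test was limma 3.58.1 in R 4.3.3 (lmFit, eBayes with a variance trend, two-sided) on all 12 arrays, with pig as a random block (consensus correlation −0.0322), and Benjamini-Hochberg adjustment at 0.05. Because that correlation is slightly negative, the block did not widen the errors for segments that share a pig. With the block 12 probe sets were called, with no block 6, and with means per pig 4. The background level of an array is the 95th percentile of 59 control probe sets with no target. Signal over background and the number of arrays limit the precision. The code was tested on simulated data.

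The genes and lists were chosen with earlier results of these data known, so list counts and medians are descriptions. Named genes are those past the threshold, the 10 with the smallest p in each direction, 5 markers given with the comparison, a panel of cell and pathway genes, and from each list the 2 members with the smallest p, or 4 where at least 3 had an unadjusted p under 0.05, beside genes at the ends of a list and markers that define a cell type. The labels give separate pigs and segments, and p-values measure the spread between these segments.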

Additional observations from a re-analysis of the deposited data

Results flagged for a closer look

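Among 288 groups of 4 arrays, drawn in part from the 137 named genes, 20 had 1 array far from the other 3. Chance alone gives about 1 in 20 groups, which is not far below the share seen. SES 4 stood apart in 6. It was high in LAMB2 (9.54, others 7.15 to 7.56), COL4A2 (11.48, others 8.93 to 9.22) and COL15A1 (13.10, others 11.39 to 11.59), all of the basement membrane zone. It was low in KLF4 (9.26, others 10.63 to 10.85), CFP (9.50, others 10.00 to 10.03) and the autophagy gene GABARAPL2 (12.76, others 13.13 to 13.18).

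ZES 1 stood apart in 5 genes. It was low in the contractile genes CALD1 (13.46, others 15.21 to 15.55) and ACTA2 (13.50, others 15.20 to 15.51), in the small heat shock protein HSPB7 (7.27, others 9.75 to 10.02) and in USP18 (7.16, others 8.22 to 8.27), and high in TFPI2 (12.68, others 10.64 to 10.99).

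ZES 2 was also apart in 5 genes. It was low in EGR1 (11.20, others 12.73 to 13.01) and PCNA (9.63, others 10.50 to 10.67), and high in the elastic fibre gene EFEMP2 (11.78, others 10.45 to 10.59), the fatty acid elongase ELOVL6 (9.20, others 6.58 to 6.92) and PGLYRP1 (8.98, others 4.81 to 5.51), a granule protein of neutrophils.

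The last 4 were THBS2 on ZES 3 (11.13, others 11.45 to 11.49), COL3A1 on ZES 4 (7.05, others 6.10 to 6.23), ALAS2 on ZES 4 (2.002, others 4.01 to 4.25) and RPL10A on SES 1 (15.61, others 15.46 to 15.47). ALAS2 was above background on 0 of 4 ZES arrays, so its flag is a difference among values below background.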

How the results depend on the processing

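The 12 called probe sets became 5 with the 8 SES and ZES arrays alone, 6 with no pig block, 4 with means per pig, 48 with no filter (33 higher with ZES), 47 with a pseudocount of 32 (29 higher), 6 after quantile normalization, 26 with artery as a covariate (17 higher), 2 in left branches alone, 5 with the spike-in signal as covariate, 306 with array weights (202 higher) and 4 without the arrays of high 28S signal. They became 0 with no variance trend (1540 at an unadjusted p under 0.05), in right coronary segments alone (937) and with the GAPDH control as a covariate (1006), all by limma. With the lowest 50% of probe sets left out 9 were called, and with each array centred on its median 8. At an adjusted p under 0.1 there were 68, and under 0.01 there were 2. The 7 called genes became 12 when probe sets sharing a gene were averaged. Leaving out 1 array or 1 pig gave 0 to 158: 59 without the pig of SES 3 and 4, 43 without that of ZES 3 and 4, 11 without that of ZES 1 and 2 and 1 without that of SES 1 and 2. The 7 called genes kept their sign in all 29 alternatives. Since their ZES and SES arrays did not overlap, leaving out arrays or taking 1 vessel could not turn the sign.

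Of 34 list medians, 14 kept their sign under every alternative, among them those of cytokines, immediate early genes, T and NK cell genes and contractile genes. The other 20 turned under at least 1. In cytokines, immediate early genes and T and NK cell genes no left-out array or pig moved the median by over 1.5 times, and in the other 31 lists at least 1 did. These list medians, and the stent by artery interaction, were added after seeing the data. No paired analysis was possible because no pig carried both stents and the array numbers are names that pair nothing. Signals near the array background limit genes such as IL1B, CXCL8 and CXCL13 on ZES arrays.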

Other observations

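The lists not described above had 0 genes past the limma threshold in each. Over all genes 6.42% were higher and 4.95% lower by unadjusted p under 0.05. Medians were 0.36 for 22 growth factors and receptors (2 higher and 0 lower by unadjusted p), 0.20 for 19 fibroblast genes (1 and 1), 0.15 for 22 amino acid response genes (2 and 1), 0.06 for 21 genes of TGF-beta signalling (0 and 0), −0.14 for 19 complement genes (0 and 1), −0.32 for 12 adipocyte genes (1 and 0), −0.41 for 8 neutrophil and mast cell genes (0 and 0), −0.12 for 10 calcification genes (3 and 0) and −0.25 for 3 red cell genes (0 and 1). Growth factors and amino acid response genes kept the sign of their median under every alternative, and the other 7 lists did not.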
